A study of Homo sapiens with 22 samples.

Results

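The regions described here are the H3R2me2a-enriched regions whose nearest transcript belongs to a gene of the splicing and RNA helicase families. H3R2me2a is asymmetric dimethylation of arginine 2 of histone H3, a mark placed by the arginine methyltransferase PRMT6. A region was taken when its nearest-transcript gene name began with SRSF, HNRNP, SF3A, SF3B, PRPF, SNRP, DDX or DHX and held no hyphen. This gave 85 of 8819 regions, under 70 of 6697 gene names. The families contributed 13 regions for SR proteins, 22 for hnRNPs, 7 for the SF3 complex, 7 for PRPF factors, 10 for snRNP proteins, 20 for DEAD-box and 6 for DEAH-box names. Of the 70 names, 60 were protein-coding in RefSeq and 10 were pseudogene or non-coding copies, which held 13 of the 85 regions.

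The study profiled chromatin by ChIP-seq in NT2/D1, a human embryonal carcinoma line that is pluripotent and differentiates on retinoic acid, after CRISPR/Cas9 deletion of PRMT6 and in CRISPR/Cas9 control cells. Region lists of 2 of the 22 samples were analysed here. Both were H3R2me2a libraries of control cells, immunoprecipitated with a rat monoclonal antibody made by the submitters. One came from control cells kept for 3 days in ATRA (all-trans retinoic acid) at 1 µM, and the other from control cells without ATRA. The PRMT6-deleted samples were not analysed here, so the dependence of these regions on PRMT6 was not measured. The sources used here do not give whether the control cells were 1 clone or a pool. Of 7 marker genes of embryonal carcinoma cells, 4 (POU5F1, SOX2, LIN28A and SALL4) were named as nearest to a region. NANOG, DPPA4 and TDGF1 were not. Of all protein-coding genes 22.4% had a region, and the marker count does not identify the cells. Expression was not measured.

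Every region belongs to 1 of 3 clusters and to either a promoter or an enhancer list. Cluster III, the promoter list and the enhancer list were deposited under the library with ATRA, and clusters I and II under the library without ATRA. Regions of clusters I and III carry a MACS tag count. All regions carry another tag count, called tagcount, whose library the sources used here do not name. In cluster I, deposited under the library without ATRA, tagcount exceeded the MACS tags by 0 to 8 (median 3, 202 regions). No tagcount in clusters I and II was below 35. These values place tagcount close to the library without ATRA, but its library was not stated, and ratios to it are not read as an effect of ATRA. There was 1 library per condition and sequencing depth is unknown. No test was therefore possible, no difference has a replicate check, and the intervals given are exact 95% intervals that cover counting error only. Regions of 1 gene, and genes that share a start region, are not independent.

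Splicing removes introns through the spliceosome, which is built on each transcript from small nuclear ribonucleoproteins (snRNPs). Most snRNPs hold a small nuclear RNA with a ring of Sm proteins and particle-specific proteins. Among the latter are the SF3A and SF3B complexes, which recognise the branch point. SR proteins, which carry arginine-serine repeats, promote the use of nearby splice sites, and hnRNPs coat nascent transcripts and often oppose it. DEAD-box and DEAH-box ATPases drive the rearrangements of the spliceosome and also act in ribosome assembly, export, translation and decay. Their genes are broadly expressed and usually start in CpG-rich promoters.

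Promoter sequences are shown for the 3 genes with the highest tagcount in cluster II and for 3 genes with the highest ratio of MACS tags to tagcount among cluster III promoters. Only genes with a single start in the RefSeq promoter table were taken. Each run covers 250 bases before to 50 bases after the RefSeq start on GRCh38.p14 and is written 5′ to 3′. Capitals mark matches on either strand to the GC box GGGCGG, the ETS motif CCGGAAG, the CCAAT box, the NRF1 core TGCGCA, the YY1 motif AAGATGG, the E box CACGTG and the TATA box TATAAA. Where matches overlap, as both strands of the ETS motif do in SNRPC, they form 1 run of capitals.
PRPF31 (chr19:54115504-54115803, plus strand): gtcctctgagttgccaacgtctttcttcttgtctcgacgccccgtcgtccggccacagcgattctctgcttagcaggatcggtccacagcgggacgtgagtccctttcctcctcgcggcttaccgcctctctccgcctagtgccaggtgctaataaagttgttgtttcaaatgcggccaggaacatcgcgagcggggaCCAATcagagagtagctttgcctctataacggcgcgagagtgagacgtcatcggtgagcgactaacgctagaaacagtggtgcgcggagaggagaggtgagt
DDX23 (chr12:48852114-48852413, minus strand): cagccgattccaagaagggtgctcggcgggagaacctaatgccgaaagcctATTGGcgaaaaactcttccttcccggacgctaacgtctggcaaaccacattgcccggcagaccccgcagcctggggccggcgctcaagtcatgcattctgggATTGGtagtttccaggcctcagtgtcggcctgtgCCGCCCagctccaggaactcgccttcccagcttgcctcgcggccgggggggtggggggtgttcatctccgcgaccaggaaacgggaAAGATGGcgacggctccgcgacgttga
DDX47 (chr12:12813096-12813395, plus strand): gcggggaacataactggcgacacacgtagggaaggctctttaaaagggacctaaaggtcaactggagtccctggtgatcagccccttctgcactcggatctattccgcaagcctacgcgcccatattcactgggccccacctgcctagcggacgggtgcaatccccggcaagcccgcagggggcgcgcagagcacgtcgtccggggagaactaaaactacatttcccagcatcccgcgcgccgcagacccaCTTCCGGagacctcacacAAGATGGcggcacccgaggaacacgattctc
DDX46 (chr5:134758529-134758828, plus strand): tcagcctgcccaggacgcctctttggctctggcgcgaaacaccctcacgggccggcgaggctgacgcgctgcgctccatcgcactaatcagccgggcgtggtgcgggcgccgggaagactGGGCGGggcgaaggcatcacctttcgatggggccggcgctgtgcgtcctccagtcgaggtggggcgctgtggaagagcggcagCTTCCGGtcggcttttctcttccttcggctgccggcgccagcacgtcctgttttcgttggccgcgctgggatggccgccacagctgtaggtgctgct
PRPF6 (chr20:63980882-63981181, plus strand): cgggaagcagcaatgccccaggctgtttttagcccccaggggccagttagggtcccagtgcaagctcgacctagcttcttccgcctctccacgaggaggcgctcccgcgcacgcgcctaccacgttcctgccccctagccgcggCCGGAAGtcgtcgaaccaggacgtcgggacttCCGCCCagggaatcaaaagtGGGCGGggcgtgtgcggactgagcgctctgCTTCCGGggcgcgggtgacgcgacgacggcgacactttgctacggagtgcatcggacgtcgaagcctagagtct
SNRPC (chr6:34757255-34757554, plus strand): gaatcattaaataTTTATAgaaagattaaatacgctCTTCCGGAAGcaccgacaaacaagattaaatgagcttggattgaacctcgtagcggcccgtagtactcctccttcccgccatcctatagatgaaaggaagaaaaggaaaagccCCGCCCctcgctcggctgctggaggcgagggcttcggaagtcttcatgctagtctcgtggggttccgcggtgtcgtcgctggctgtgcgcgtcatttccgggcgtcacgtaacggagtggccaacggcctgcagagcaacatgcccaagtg
The DDX23 and DDX47 promoters both held the YY1 motif just after the start, at bases 274 and 270 counted from 1 at the 5′ end of the run. The PRPF31 run held 1 match, a CCAAT at base 199. The DDX46, PRPF6 and SNRPC runs each held GC box and ETS matches. DDX23 also held a GC box match, at base 188, and DDX47 an ETS match, at base 252. A match describes these letters only and does not show that a factor binds.

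The first question was which genes of these families were named as nearest to an H3R2me2a region, at any distance. Of 125 RefSeq protein-coding genes with these name beginnings, 60 had at least 1 region (48%, 39 to 57.1%), beside 4485 of all 20052 protein-coding genes (22.4%). SR protein genes were covered almost completely, with 10 of 12 (83.3%, 51.6 to 97.9%). The core spliceosome families followed, with 7 of 9 SF3 genes (77.8%, 40 to 97.2%), 9 of 12 snRNP protein genes (75%, 42.8 to 94.5%) and 6 of 12 PRPF genes (50%, 21.1 to 78.9%). Coverage was lower for hnRNP genes, with 10 of 26 (38.5%, 20.2 to 59.4%), for DEAD-box genes, with 13 of 38 (34.2%, 19.6 to 51.4%), and for DEAH-box genes, with 5 of 16 (31.2%, 11 to 58.7%). The intervals of several families overlap, and those for PRPF, hnRNP, DEAD-box and DEAH-box genes include the share of all protein-coding genes. A promoter-list region was found for 58 of the 60 family genes and for 3327 of the 4485. Of the 10 hnRNP genes 9 had one, and HNRNPA1L3 had enhancer-list regions only. The 26 hnRNP genes include HNRNPCL1, HNRNPCL2, HNRNPCL3 and HNRNPCL4, which had no region.

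**Figure D1:**
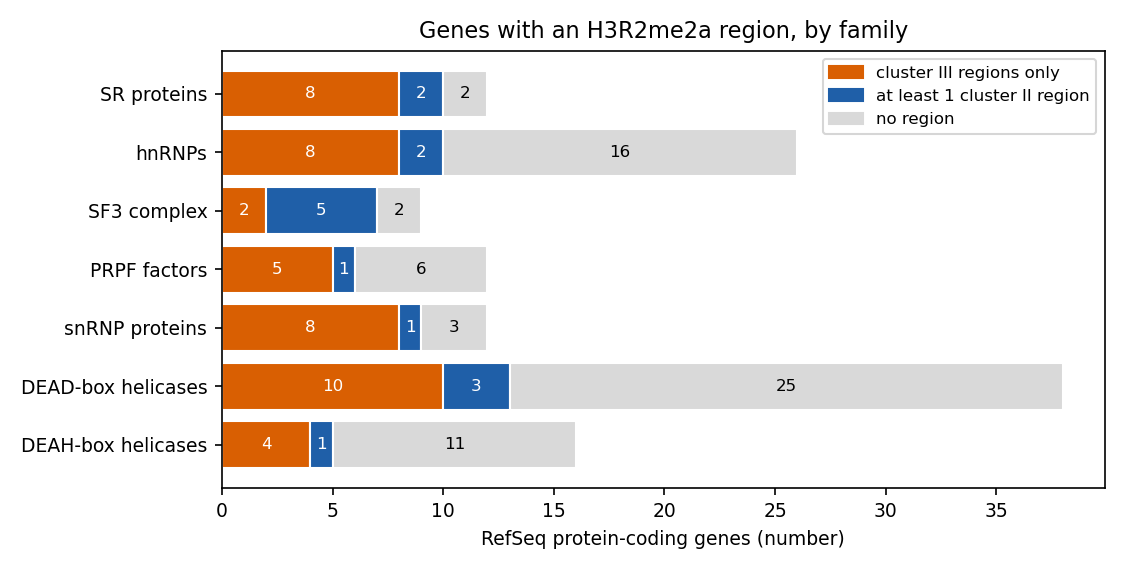
Number of RefSeq protein-coding genes in each family (horizontal axis), split into genes with cluster III regions only, genes with at least 1 cluster II region and genes with no region in the lists analysed here. SR protein, SF3 and snRNP protein genes mostly had a region, with 10 of 12, 7 of 9 and 9 of 12 genes, and the SF3 complex is the only family with fewer cluster III than cluster II genes (2 in cluster III and 5 in cluster II).

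Every family had genes with no region in the lists analysed here. Among SR genes these were SRSF8 and SRSF12. Among snRNP protein genes they were SNRPD1, SNRPD2 and SNRPD3, which encode Sm ring proteins, and in the SF3 complex SF3A1 and SF3A2. PRPF8, the core scaffold of the catalytic spliceosome, and PRPF19, a ubiquitin ligase of the spliceosome, had none, nor had PRPF4, PRPF18, PRPF39 and PRPF40B. Of the abundant hnRNP genes, HNRNPC, HNRNPD, HNRNPF, HNRNPH1, HNRNPL and HNRNPM had none. Among helicases without a region were DDX5 and DDX17, a closely related pair that act in transcription and splicing, DHX15 and DHX38, which act on the spliceosome, and the germ cell gene DDX4.

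Promoters dominated among the family regions. The promoter list held 67 of the 85 (78.8%, 68.6 to 86.9%), beside 4236 of all 8819 regions (48%). By the authors' position classes 68 lay in start windows (80%), beside 53.3% of all regions. The others were 7 intergenic (8.24%, beside 17.5%), 5 intronic (5.88%, beside 23%), 4 upstream (4.71%, beside 3.53%) and 1 exonic (1.18%, beside 2.66%). Of the 67 promoter-list regions, 64 lay within 1 kb of a start (95.5%, 87.5 to 99.1%), beside 92.1% of all promoter-list regions. Within 100 bp lay 45 (67.2%, 54.6 to 78.2%), beside 59.3% of all promoter-list regions. The median distance to a start was 64 bp over these 67 and 72 bp over all promoter-list regions. The point of a region from which the authors measured the distance is not given. Gene naming uses nearness to a start, so these distances are not independent of how the regions were chosen.

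Most family regions were cluster III. Cluster III held 68 (80%, 69.9 to 87.9%), cluster II 17 (20%, 12.1 to 30.1%) and cluster I none. Zero of 85 allows a share of up to 3.53% when 3 counts are taken as the limit, and the exact interval reaches 4.25%. Over all regions the shares were 73.9% in cluster III, 23.8% in cluster II and 2.29% in cluster I, and all 3 lay within the intervals of the family. Within the promoter list cluster III held 52 of 67 (77.6%, 65.8 to 86.9%) and cluster II 15 (22.4%, 13.1 to 34.2%). Over all promoter-list regions the shares were 63.9% and 35.5%, and both lay just outside the intervals of the family. The comparison over all regions mixes the 2 lists in other proportions than the family does. No cluster II region in the whole data had fewer than 35 tags in tagcount. Among promoter-list regions with at least 35 tags, a cutoff chosen after the data were seen, cluster II made up 15 of 43 family regions (34.9%, 21 to 50.9%). Of all 2583 such regions it made up 1503 (58.2%), which lay above the interval of the family.

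Tag counts at family promoters were close to those of other promoters. The median tagcount was 41 over the 67 family regions (interval 35 to 47) and 40 over all promoter-list regions. A tagcount at or above the promoter-list median was found in 34 of 67. By cluster, the median was 35.5 over the 52 cluster III regions, beside 30 over all cluster III promoters, and 65 over the 15 cluster II regions, beside 74 over all cluster II promoters. Cluster III values ran between 10 and 128 and cluster II values between 35 and 336, so the 2 sets overlapped. One family promoter, that of PRPF31, stood among the 100 highest of the 4236. Tags were counted per region and not scaled by width, and the PRPF31 region was the widest of the 17 in cluster II, at 1040 bp.

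**Figure D2:**
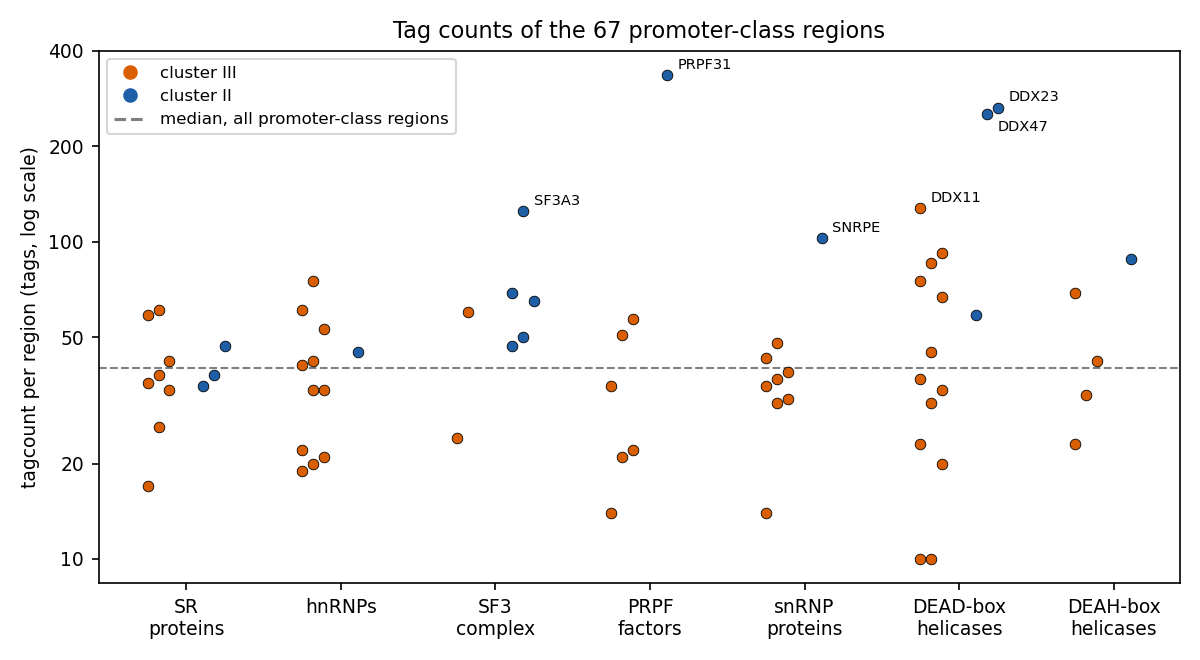
Tagcount (tags per region, log scale) of each of the 67 promoter-list regions, by family and cluster, with the median of all promoter-list regions (40 tags) as a dashed line. PRPF31, DDX23 and DDX47, all cluster II, stand above 250 tags, while the SR protein regions stay between 17 and 61.

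The SF3A and SF3B proteins of the U2 snRNP bind the branch point and were marked mostly in cluster II. Cluster III held SF3B1, the scaffold of the complex and a frequent target of mutation in blood cancers, and SF3B4, which tethers the complex to the transcript upstream of the branch point. SF3B1 had 49 MACS tags and a tagcount of 24, at a distance of -119 bp, where negative values lie upstream. SF3B4 had 99 MACS tags and a tagcount of 60. The other 5 regions were cluster II. SF3A3, a subunit of SF3A, had the highest tagcount of the group, at 125 (interval 104 to 148.9), 25 bp upstream of a start on chromosome 1 (38455386 to 38456078). SF3B5, a small subunit, had 69, SF3B14 (the SF3B6 gene in RefSeq, whose product contacts the branch point adenosine) 65, SF3B2 50 and SF3B3 47. All 7 lay within 223 bp of a start. The share in cluster II was 5 of 7 (71.4%, 29 to 96.3%), and its interval includes the 35.5% of all promoter-list regions. The SF3B3 region ended 1 bp from another cluster II region, which was assigned to COG4.

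The PRPF genes named here encode proteins of the tri-snRNP and of early spliceosomal complexes. PRPF31, which joins the tri-snRNP together and is mutated in a form of retinitis pigmentosa, had the highest tagcount of all 85 regions, at 336 (301 to 373.9). It ranked 66 of 4236 in the promoter list and lay in cluster II on chromosome 19 (54618435 to 54619474), 62 bp upstream of a start. The RefSeq starts of PRPF31 and TFPT lie head to head, so tags there cannot be assigned to either gene. The other 6 PRPF regions were cluster III. PRPF3 and PRPF6, also tri-snRNP proteins linked to retinitis pigmentosa, had 38 MACS tags with a tagcount of 14 and 71 MACS tags with a tagcount of 22. PRPF38A, needed for spliceosome activation, had 73 and 51, and its relative PRPF38B had 39 and 35.

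Among the snRNP proteins, SNRPE, an Sm ring protein, was the only cluster II member, with a tagcount of 103 (84.07 to 124.9) on chromosome 1 (203830482 to 203831377). The other ring genes were cluster III. SNRPB had 76 MACS tags and a tagcount of 43, SNRPF 90 and 39, and SNRPG 41 and 32. Both U2-specific genes were cluster III, with 112 MACS tags and a tagcount of 48 at SNRPA1 and 63 and 37 at SNRPB2. The U1-specific genes SNRPA and SNRPC had 50 and 31, and 45 and 14. The SNRPN region, which the authors placed 50600 bp upstream of a start and in the intergenic class, was nevertheless in the promoter list (chromosome 15, 25017928 to 25018544, 52 MACS tags, tagcount 35). SNRPN is an imprinted gene whose known upstream exons extend far from its coding part. The pseudogene SNRPGP10 had an enhancer-list region 488 bp upstream of its start, with 88 MACS tags and a tagcount of 51.

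All 10 SR genes with a region had one at a start in the promoter list. Their 11 promoter-list regions had tagcounts between 17 and 61, and none reached 100. Cluster III held SRSF1, the founding member, SRSF2, SRSF3, SRSF4, SRSF5, SRSF6, SRSF9 and SRSF10, a member that represses splicing when it loses phosphate. The most MACS tags were at SRSF10, with 91 and a tagcount of 59, followed by SRSF4 with 89 and 61, SRSF6 with 77 and 42, and SRSF3 with 74 and 36. SRSF2 had 67 and 38, SRSF1 44 and 34, and SRSF5 44 and 26. The lowest was SRSF9 with 39 and 17. Cluster II held SRSF7, which also acts in export (tagcount 47), and both regions of SRSF11 (38 and 35). The SRSF11 regions lay 15409 bp apart on chromosome 1 (70671120 to 70671520 and 70686930 to 70687324), each within 18 bp of a start. SRSF3 and SRSF4 each had an additional enhancer-list region. That of SRSF3 was intergenic, 14411 bp upstream of a start (chromosome 6, 36547607 to 36548067, 36 MACS tags, tagcount 24). That of SRSF4 was intronic (chromosome 1, 29483189 to 29483674, 36 MACS tags, tagcount 31). SRSF2 shared its start area with MFSD11, whose cluster III region ended 4 bp away.

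The hnRNPs held 22 regions under 14 names. HNRNPA1 and HNRNPA2B1 encode the closely related A/B hnRNPs that bind exonic silencers. HNRNPA1 had 4 regions on chromosome 12. The first, at 54673852 to 54674291, was cluster III with 40 MACS tags and a tagcount of 21. The second, at 54674490 to 54674971, was cluster II with a tagcount of 45. Both were in the promoter list and lay 198 bp apart. The third, at 54678579 to 54679433, was enhancer-list despite lying 855 bp upstream of a transcript start, with 72 MACS tags and a tagcount of 49. The fourth was intronic, at 54681105 to 54681570, with 36 and 24. HNRNPA1 was thus marked in both clusters and in both lists.

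HNRNPA2B1 had 3 cluster III regions in the promoter list, on chromosome 7 between 26237652 and 26241652. The middle one had 138 MACS tags and a tagcount of 75, the upstream one 93 and 41, and the downstream one 35 and 34. The authors' distances were 377 bp for the middle region, 145 bp for the upstream one and -1467 bp for the downstream one. The 3 were thus not all measured from 1 start. The RefSeq start used here for HNRNPA2B1 is head to head with that of CBX3, which encodes a heterochromatin protein. HNRNPU, a nuclear matrix protein that also binds chromatin, had 114 MACS tags and a tagcount of 61. HNRNPA3 had 79 and 42, HNRNPK 78 and 53, HNRNPH2 62 and 34, HNRNPUL2 40 and 19, and HNRNPDL 35 and 22. HNRNPA1L2, a retrocopy of HNRNPA1, had 37 and 20. HNRNPK and HNRNPUL2 lay 7 and 763 bp from cluster III regions of their head-to-head neighbours RMI1 and TTC9C.

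**Figure D3:**
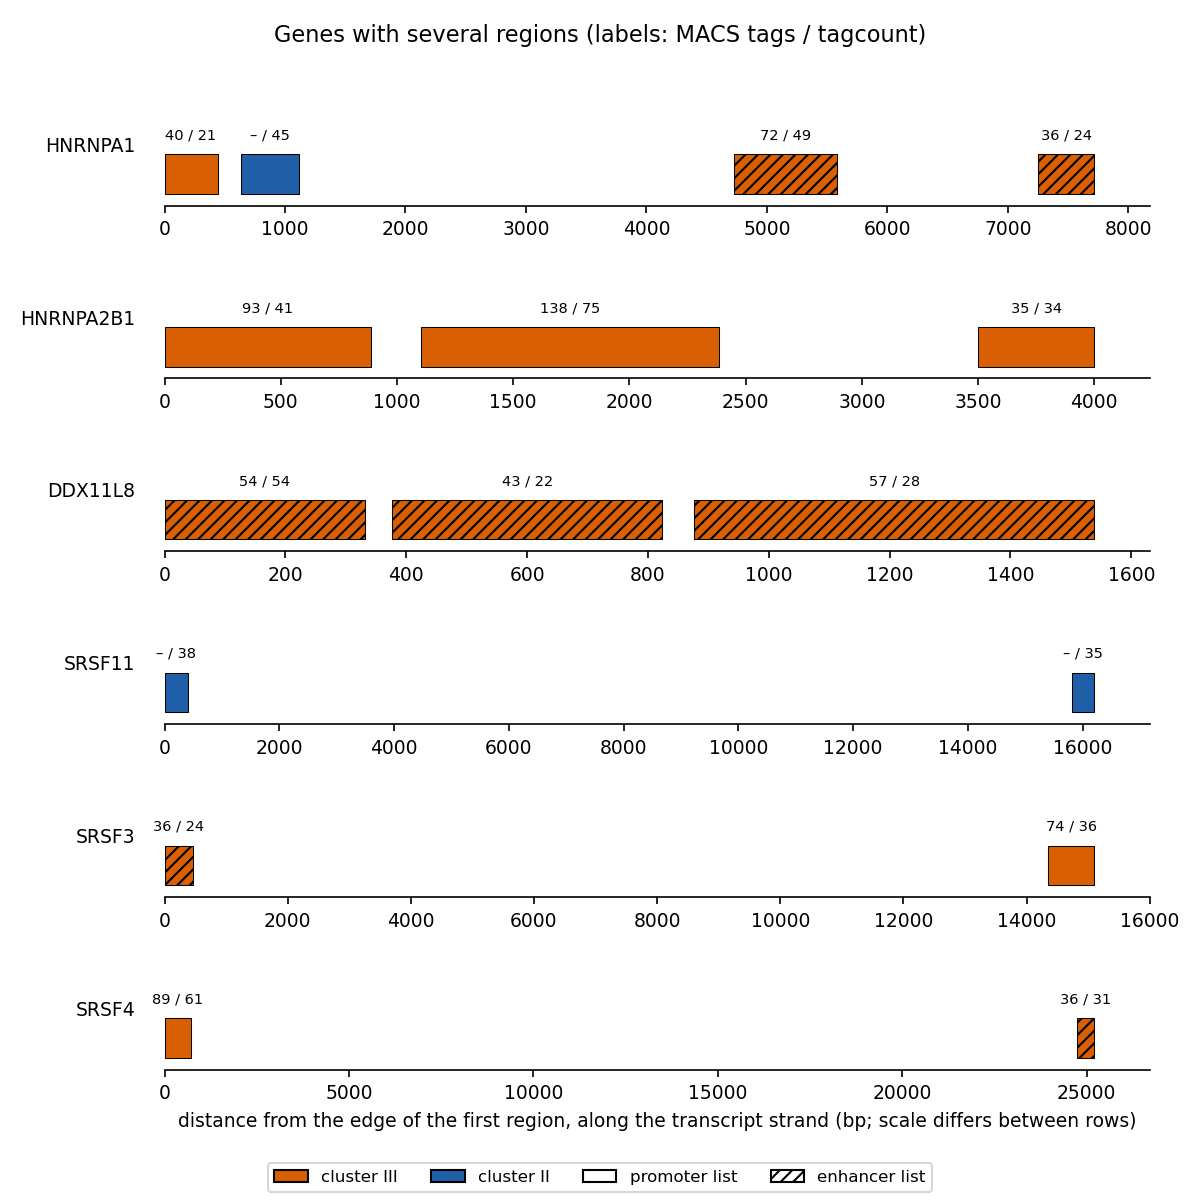
Regions of 6 genes with several regions, drawn to scale along the transcript strand in bp from the edge of the first region, with MACS tags and tagcount above each (a dash where cluster II has no MACS tags). HNRNPA1 combines both clusters and both lists, the 3 HNRNPA2B1 regions are all cluster III promoters, and the scale differs between rows.

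The remaining hnRNP names were pseudogenes or retrocopies, and their regions were all in the enhancer list. HNRNPA1P48, which RefSeq now lists as the protein-coding HNRNPA1L3, was nearest to 3 regions on chromosome 16. A cluster III pair lay at distances of -102330 and -100495 bp, with 66 MACS tags and a tagcount of 38, and with 29 and 23. The third, in cluster II, lay 8632 bp upstream with a tagcount of 40. HNRNPA1P51 had a cluster II region 3107 bp upstream with a tagcount of 45. HNRNPA3P11 had 71 MACS tags and a tagcount of 12 in an intron of chromosome 15, and HNRNPA3P14 had intronic regions with 59 and 12, and with 29 and 17. HNRNPCP8 had an intergenic region with 50 and 6. The authors' nearest-transcript names do not show which gene a region acts on.

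Among DEAD-box genes, DDX23 and DDX47 had the highest tags. DDX23, the helicase that releases the U1 snRNP from the 5′ splice site, had a tagcount of 265 (234.1 to 298.9) in cluster II, rank 103 of 4236, on chromosome 12 (49245594 to 49246363), 64 bp upstream of a start. DDX47, which acts in ribosomal RNA processing, had 253 (222.8 to 286.2), rank 114, also in cluster II on chromosome 12 (12965900 to 12966659), 1 bp from a start. Its region is on the short arm of that chromosome, as are those of DDX11 and DDX12P described below. Without that arm the median tagcount of family promoters was 38.5, beside 41 with it. Whether tags run higher along that arm at other genes was not tested. DDX55, another ribosome assembly factor, had 59 in cluster II. The cluster III promoters of the other spliceosomal helicases had lower tagcounts than DDX23. DDX46, which remodels the U2 snRNP, had 35 MACS tags and a tagcount of 10, DDX41 58 and 34, and DDX39B, which acts in U2 recruitment and export, 71 and 67. DDX3X, a helicase of translation initiation, had 38 and 10, and shared with DDX46 the lowest tagcount of the family promoters. DDX59 had 137 and 75, DDX1 66 and 45, DDX19A, an export factor, 57 and 31, and DDX31 52 and 37. DDX27 had an exonic enhancer-list region with 34 and 16, 2855 bp from the start the authors name.

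DDX11 and its copies need separate reading. DDX11 encodes a DNA helicase of sister chromatid cohesion, not an RNA helicase. Its promoter region had the most MACS tags of the 68 cluster III regions, 179 (153.7 to 207.2), and a tagcount of 128, on chromosome 12 (31226167 to 31227757). It was also the widest of the 85 regions, at 1591 bp, and tags were not scaled by width. The pseudogene DDX12P followed with 157 MACS tags and a tagcount of 92 (chromosome 12, 9599901 to 9600971). DDX11L5 had 120 and 86, DDX11L16 65 and 23, and DDX11L2 36 and 20. DDX11L8 had 3 enhancer-list regions in a row near the end of chromosome 12 (94215 to 95753), with 57 and 28, 43 and 22, and 54 and 54. The DDX11L transcripts are near-identical copies and DDX12P is a close copy of DDX11. The sources used here do not give how reads that match several copies were placed, so tags at these 8 regions may be split or shared between copies.

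DEAH-box regions were few. DHX30, a helicase of mitochondrial translation, had a cluster II promoter with a tagcount of 88 on chromosome 3 (47844255 to 47844876). Its second deposited interval was 1383 bp wide, beside 622 bp for the first. DHX9, a helicase of many nuclear complexes, had 139 MACS tags and a tagcount of 69. DHX8, which releases the spliced transcript, had 56 and 33, and DHX57 43 and 23. DHX35, found in the catalytic spliceosome, had 2 regions that lay at opposite ends of the ratio of the tag columns. Its promoter had 40 MACS tags and a tagcount of 42. An intergenic enhancer-list region, 53603 bp from a start (chromosome 20, 37712356 to 37712812), had 65 and 5.

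The next comparison set MACS tags, from the library with ATRA, against tagcount in the cluster III regions. The 2 columns are unscaled, so the ratio is read only against that of other cluster III regions. At family promoters in cluster III the median ratio was 1.81 (1.69 to 1.87), and over all cluster III promoters it was 1.77. In the enhancer list the family median was 1.73 over 16 regions (1.47 to 4.92), and that of all 3811 was 2.66. MACS tags at least 2 times tagcount were found in 21 of 68 family regions (30.9%, 20.2 to 43.3%), beside 53.5% of all cluster III regions. Split by list, this was 15 of 52 promoter-list regions (28.8%, 17.1 to 43.1%), beside 35.2% of all, and 6 of 16 enhancer-list regions (37.5%, 15.2 to 64.6%), beside 66.5% of all. The interval of the family included the share of all regions in the promoter list and lay below it in the enhancer list. The 16 enhancer-list regions include several each of DDX11L8, HNRNPA1, HNRNPA1P48 and HNRNPA3P14. These are not independent, as the interval assumes. At a ratio of at least 3 the promoter-list shares stood the other way, with 5 of 52 (9.62%, 3.2 to 21%), beside 5.61% of all.

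The extremes of the ratio, picked by sorting, lay in both directions. The intervals of HNRNPA3P14, DDX46, SNRPC and PRPF38B include the median of all cluster III regions of their list. In the enhancer list a ratio of at least 3 was found in 4 of 16 family regions (25%, 7.27 to 52.4%), beside 43.5% of all. The highest ratios were those of the DHX35 intergenic region (13, interval 5.29 to 41.4) and the pseudogene regions of HNRNPCP8 (8.33, 3.57 to 23.8), HNRNPA3P11 (5.92, 3.19 to 11.99) and HNRNPA3P14 (4.92, 2.62 to 10.05). Among promoters DDX3X had the highest (3.8, 1.86 to 8.55), followed by DDX46 (3.5, 1.7 to 7.92). PRPF6 (3.23, 1.98 to 5.47) and SNRPC (3.21, 1.73 to 6.34) were also above 3. The lowest were DHX35 at its promoter (0.952, 0.602 to 1.51), the third DDX11L8 region (1, 0.673 to 1.49), the downstream HNRNPA2B1 region (1.03, 0.624 to 1.7), DDX39B (1.06, 0.748 to 1.5) and PRPF38B (1.11, 0.688 to 1.81). A ratio below 1 was found in 1 of 68 family regions and in 83 of all 6519.

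**Figure D4:**
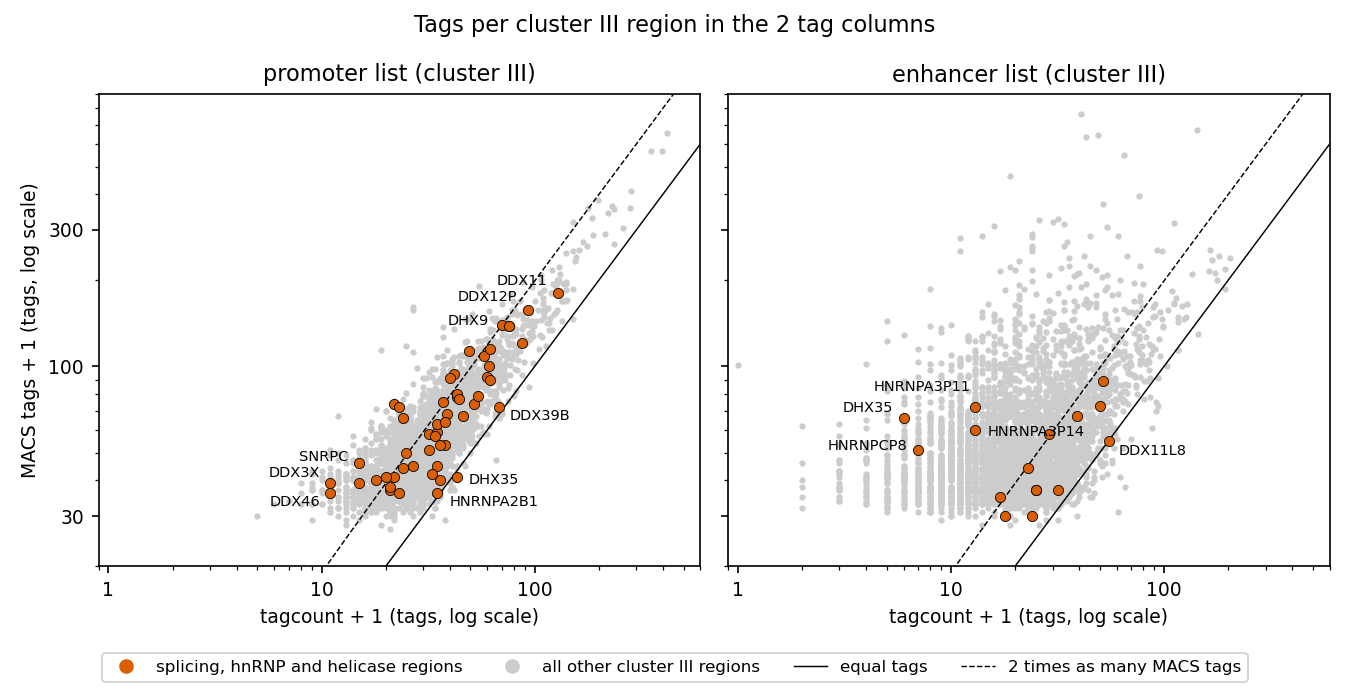
MACS tags against tagcount for cluster III regions of the promoter list (left) and the enhancer list (right), both with 1 added and on log scales; orange points are family regions and grey points all others, with lines at equal tags and at 2 times as many MACS tags. Family promoters follow the grey cloud. In the enhancer list the DHX35, HNRNPCP8 and HNRNPA3P11 regions lie far to the left of the line for 2 times as many tags. So does the HNRNPA3P14 region with 59 MACS tags, and most grey points there also lie left of that line.

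Position and sequence features that the names did not use were close to the background in most cases. Another region lay within 250 bp of 12 of the 85 (14.1%, 7.51 to 23.4%), beside 6.29% of all regions. Among these were 3 DDX11L8, 2 HNRNPA1 and 2 HNRNPA2B1 regions and those of SF3B3, SRSF2 and HNRNPK. In the promoter list the shares were 9 of 67 (13.4%, 6.33 to 24%) and 8.05%, which lies within the family's interval. The short arm of chromosome 12 held 6 of the 85 regions (7.06%, beside 7.26% of all regions). They were those of DDX47, DDX11 and DDX12P and the 3 DDX11L8 regions. Median width was 549 bp over the cluster III family promoters and 523 bp over those of cluster II, beside 532.5 and 537 bp over all promoters of these clusters.

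Of the 60 protein-coding names 54 were in the RefSeq promoter table, and 53 of them had a promoter-list region. Those not matched included HNRNPA1, HNRNPA1L3, PRPF3, SF3B3 and SRSF2. One promoter per gene was used, the first listed. The ETS motif was in 22 of the 53 (41.5%, 28.1 to 55.9%), beside 24.5% of the 2834 genes with any promoter-list region, 31.6% of the 57 family genes with no region and 14.2% of all 15842 protein-coding genes. CCAAT was in 18 of 53 (34%, 21.5 to 48.3%), and in 32 of the 57 family genes with no region (56.1%, 42.4 to 69.3%), beside 35.8% of genes with any promoter-list region and 36.4% of all genes. The GC box was in 56.6%, beside 66.3% of genes with any promoter-list region and 58.5% of all genes. TATAAA was in 7.55%, beside 5.72% and 9.63% in the same order. The NRF1 core was in 18.9%, beside 14.6% and 10.8%, and the E box in 11.3%, beside 10.9% and 8.88%.

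By cluster, the YY1 motif was in 3 of 41 genes with cluster III promoters only (7.32%, 1.54 to 19.9%) and in 4 of 12 genes with a cluster II promoter (33.3%, 9.92 to 65.1%), beside 10.1% of genes with any promoter-list region and 6.4% of all genes. These intervals overlap. YY1 was 1 of several motifs split this way, and its split rests on 7 genes. The ETS motif was in 6 of 12 genes with a cluster II promoter and in 16 of 41 with cluster III promoters only. In the same order, the GC box was in 6 and 24, CCAAT in 4 and 14, and the NRF1 core in 2 and 8. The E box was in 0 and 6, and TATAAA in 1 and 3. For each of these motifs the intervals also overlap. Median CpG number was 29 per 300 bases over the 53 family promoters, 25 over genes with any promoter-list region and 22 over all genes. A RefSeq start of another gene, coding or not, lay head to head within 1 kb upstream of 20 of the 53 (37.7%, 24.8 to 52.1%), beside 28.2% of genes with any promoter-list region and 19.9% of all. Such a start was found for 2 of 12 genes with a cluster II promoter (16.7%, 2.09 to 48.4%). With cluster III promoters only it was found for 18 of 41 (43.9%, 28.5 to 60.3%), and the intervals overlap. Besides those named above, the partners included ORC1 at PRPF38A, GTF3C4 at DDX31, MORN2 at DHX57, ENOPH1 at HNRNPDL, GLA at HNRNPH2 and DYNLL1 at SRSF9. Tags at these starts cannot be assigned to either gene.

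The same pathways hold many genes whose names begin otherwise, and these were counted from lists written with earlier results known. Of 100 other spliceosome, exon junction, export, SMN complex and SR kinase genes 42 had a region (42%, 32.2 to 52.3%), with 26 genes in cluster III and 18 in cluster II, 2 of them in both. All 42 had a promoter-list region and 1 also an enhancer-list region. The highest tagcounts were at CWC22, a factor for exon junction complex loading (250, cluster II), GEMIN8 of the SMN complex (174, cluster II), LUC7L, a U1-associated protein (153, cluster II), and SRRM2, a scaffold of nuclear speckles (136, cluster II). MAGOHB, an exon junction protein, had the most MACS tags among the cluster III genes of this list, 199, with a tagcount of 106. Of 47 splicing regulators 15 had a region (31.9%, 19.1 to 47.1%), 12 in cluster III and 4 in cluster II, and 6 of the 15 had an enhancer-list region. Among these, PTBP1, a repressor of neuronal exons, had 111 MACS tags and a tagcount of 26 at its promoter. RALY had intronic regions with 104 and 15 and with 92 and 11. SRRM3, a regulator of neural microexons, had 4 enhancer-list regions. Of 19 RNA helicase genes outside the DDX and DHX names 8 had a region (42.1%, 20.3 to 66.5%). The intervals of the regulators and of these helicases include the 22.4% of all protein-coding genes. Among the helicases was EIF4A2 with 3 regions, one of them in cluster II with a tagcount of 124.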

How the data were processed

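H3R2me2a ChIP-seq region lists from control NT2/D1 cells with and without ATRA were used, 1 library each. Per the submitters' processing notes the tools were Bowtie2, MACS 1.4, bcl2fastq and deepTools and the build hg19 (GRCh37), with no role or order stated. For each region the authors deposited tag counts, which are whole numbers, and distances, lengths and summits in base pairs, per the file headers. The sources used here do not give the criteria for the clusters and lists, the control used for peak calling or the sequencing depth. Cluster II carries 2 intervals per region, and the first was used, since its coordinates match the promoter and enhancer lists.

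Clusters were joined on chromosome, start and stop, and every region matched. Shares carry exact Clopper-Pearson 95% intervals, tag counts exact Poisson intervals, ratios of counts conditional exact intervals and medians exact order-statistic intervals, computed with Python 3.11.15, pandas 2.3.3 and scipy 1.17.1, and tested on simulated data. Names were matched to RefSeq symbols and synonyms on GRCh38.p14, of which all 70 matched. RefSeq coordinates were not set against hg19 regions.

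Genes were named by family, except for 1 that is counted but not reported here. Values were given for the highest and lowest tag counts and ratios, for genes with several regions and for members whose list and distance to a start differ. The families and gene lists were chosen with earlier results of these data known. Alternatives covered 1 region per gene, names, strictness, distance, chromosome arm, join, families, tag minimum and fold.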

Additional observations from a re-analysis of the deposited data

How the results depend on the processing

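Across 9 results and 70 alternatives, 57 values stayed within the counting interval of the value reported or, for the count, within 1.5 times it. Some of these could not move. The cluster I share of 0% stays at 0% in any subset. Joining clusters by overlap leaves lists, distances and tag counts unchanged. With cluster I at 0%, the cluster II and cluster III shares mirror each other. The share of family regions in the promoter list was 87.1% with 1 region per gene, 87.5% without pseudogene and non-coding names and 95.5% within 1 kb of a start. The share within 1 kb of a start was 87.1% with 1 region per gene. One alternative kept only regions whose tagcount reached the median of the promoter or enhancer list. Its cluster III share was 65.9% and its cluster II share 34.1%. The median tagcount of promoter-list regions was then 60.5 and the median ratio of MACS tags to tagcount 1.65. At least 2 times as many MACS tags were then found in 4 of 29 cluster III regions. This alternative selects on tagcount, so the medians and the count shift by construction. The matching share over all cluster III regions was not counted. The count at 2 times was 7 of 22 for DDX and DHX names only, beside 53.5% of all cluster III regions. The count was 9 at a ratio of at least 3 (13.2%, beside 27.8% of all cluster III regions) and 50 at a ratio of at least 1.5 (73.5%, beside 80.3%). The share of family promoters in cluster II was 34.9% at or above the lowest tagcount of cluster II, an alternative chosen after seeing the data. No paired analysis was possible because there was 1 library per condition and no test was made. Without replicates or depths, no difference here can be separated from variation between libraries.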

Other observations

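A region named HNRNPU-AS1, left out by the hyphen in its name, lay in an exon on chromosome 1 (245006464 to 245007264), in cluster III and the enhancer list, with 62 MACS tags and a tagcount of 41. In cluster II the second deposited interval was wider than the first. Its median width was 802 bp over the 17 family regions, where that of the first was 508 bp, and over all 2098 cluster II regions the medians were 704.5 and 519 bp. At SF3A3 and SNRPE it was narrower, with 662 against 693 bp and 704 against 896 bp. The sources used here do not name the library behind each interval.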
